A study of Mus musculus with 37 samples.

Results

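The B cell and plasma cell genes described here are 31 genes of the deposited count table, chosen by symbol as genes of mature B cells (24 genes), of the germinal centre (2 genes) and of plasma cells (5 genes). They are 31 of the 24421 symbols of the table, and all of them passed the filter on low counts. RNA of lung tissue was sequenced from 37 C57BL/6 mice, 1 library per mouse, after 0.75 Gy of ionising radiation or a mock exposure at 0 Gy. Silicon + NR (6 mice) received accelerated silicon ions and were given nicotinamide riboside (NR) at 12 mM in their water, a form of vitamin B3 from which cells make NAD. Silicon (7 mice) received the same ions without NR. GCR (7 mice) received a beam of 5 kinds of ion made to resemble galactic cosmic radiation, and gamma (5 mice) received gamma rays of a caesium source. Mock + NR (5 mice) drank NR without radiation, and mock (7 mice) had neither. The labels give 22 males and 15 females. Neither the age of the mice nor the time from exposure to dissection is stated in the labels. Nothing in the labels says that the mice of a group were exposed or dissected separately, so p-values measure the spread between these mice.

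B cells recognise antigen through a surface immunoglobulin that signals through the Cd79a and Cd79b chains. Follicular B cells of lymphoid tissue carry the receptors Cr2 and Fcer2a and find their follicles through Cxcr5, and activated B cells can enter the germinal centre, where Bcl6 and Pou2af1 are needed. Some become plasma cells, which switch off much of the B cell programme under Irf4 and Prdm1 and secrete antibody. The lung holds B cells in its tissue and can form B cell follicles along its airways.

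Libraries differed in 3 ways that bear on these genes. Over 100 CPM (counts scaled to a library total of 1000000) of Ccl19, a chemokine of lymphoid tissue stroma, were found in 3 lymphoid-rich libraries, silicon replicates 3 and 6 and mock + NR replicate 4. Skeletal muscle RNA, read as over 1000 CPM of Acta1, was found in 13 libraries, 2 of silicon + NR, 5 of silicon, 2 of mock + NR and 4 of mock. The ribosomal RNA gene Rn45s passed 100000 CPM in mock replicate 4 and in replicates 2, 5 and 6 of GCR. Gamma replicate 5 is labelled female and had Xist at 3.73 CPM and the Y-linked Ddx3y at 87.6 CPM, which goes against its sex label. Total counts ran from 9485197 to 66381526, with a median of 28476462. Markers of B cell precursors were near 0, with at most 0.48 CPM of Rag1 and 1.27 CPM of Vpreb1. Immunoglobulin genes were not analysed here.

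Among the genes are the octamer-binding factor Pou2f2 and its coactivator Pou2af1, which act at the DNA motif ATGCAAAT. RefSeq promoters of GRCm38.p6, from 250 bases before to 50 bases after a transcript start, matched 26 of the 31 genes. The motif, on either strand, stood in 2 of these 26 genes (7.69%) and in 1.97% of all 27025 genes with a promoter. Both promoters are shown because the motif is the same while the levels below differ: Blnk followed Cd79a across libraries (r = 0.512, adjusted p = 0.00392 by permutation, n = 34) and Vpreb3 followed the airway gene Scgb1a1. A match is a stretch of letters, not a known site. Capitals mark the motif, which lies on the opposite strand in both. It starts 45 bases before the transcript start in Vpreb3 (chr10:75948050-75948349, plus strand) and 130 bases before it in Blnk (chr19:40994172-40994471, minus strand). In GENCODE both genes start upstream of the stretch shown, Vpreb3 at 75943057 and Blnk at 40994535. Which start the counted RNA came from was not tested.
Vpreb3: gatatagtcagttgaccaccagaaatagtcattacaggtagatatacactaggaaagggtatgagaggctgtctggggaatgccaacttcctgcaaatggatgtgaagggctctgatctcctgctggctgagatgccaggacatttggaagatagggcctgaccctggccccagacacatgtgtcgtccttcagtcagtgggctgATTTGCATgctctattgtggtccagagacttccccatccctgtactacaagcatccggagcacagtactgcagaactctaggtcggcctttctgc
Blnk: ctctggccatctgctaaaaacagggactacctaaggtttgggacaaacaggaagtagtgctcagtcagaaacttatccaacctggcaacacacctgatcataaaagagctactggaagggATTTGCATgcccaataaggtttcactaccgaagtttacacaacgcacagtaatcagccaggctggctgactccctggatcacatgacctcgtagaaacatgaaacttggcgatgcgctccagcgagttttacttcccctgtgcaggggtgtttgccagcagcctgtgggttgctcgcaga

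The lymphoid-rich libraries had by far the most RNA of mature B cells. Between the mean of these 3 libraries and the mean of the other 34, 22 of the 31 genes were more than 5 times higher, and the median ratio was 8.32. Over all genes with a mean of at least 1 CPM, 2.07% were more than 5 times higher, and the median ratio was 1.05. In 24 of the 31 genes each lymphoid-rich library was above every other library. Of the 14865 genes with a mean of at least 1 CPM, 5.81% had no such overlap. The libraries were set apart by Ccl19 and not by these genes, so the ratios say which genes came with that tissue and carry no test. In bulk tissue, fewer B cells and less RNA per B cell cannot be told apart.

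**Figure D1:**
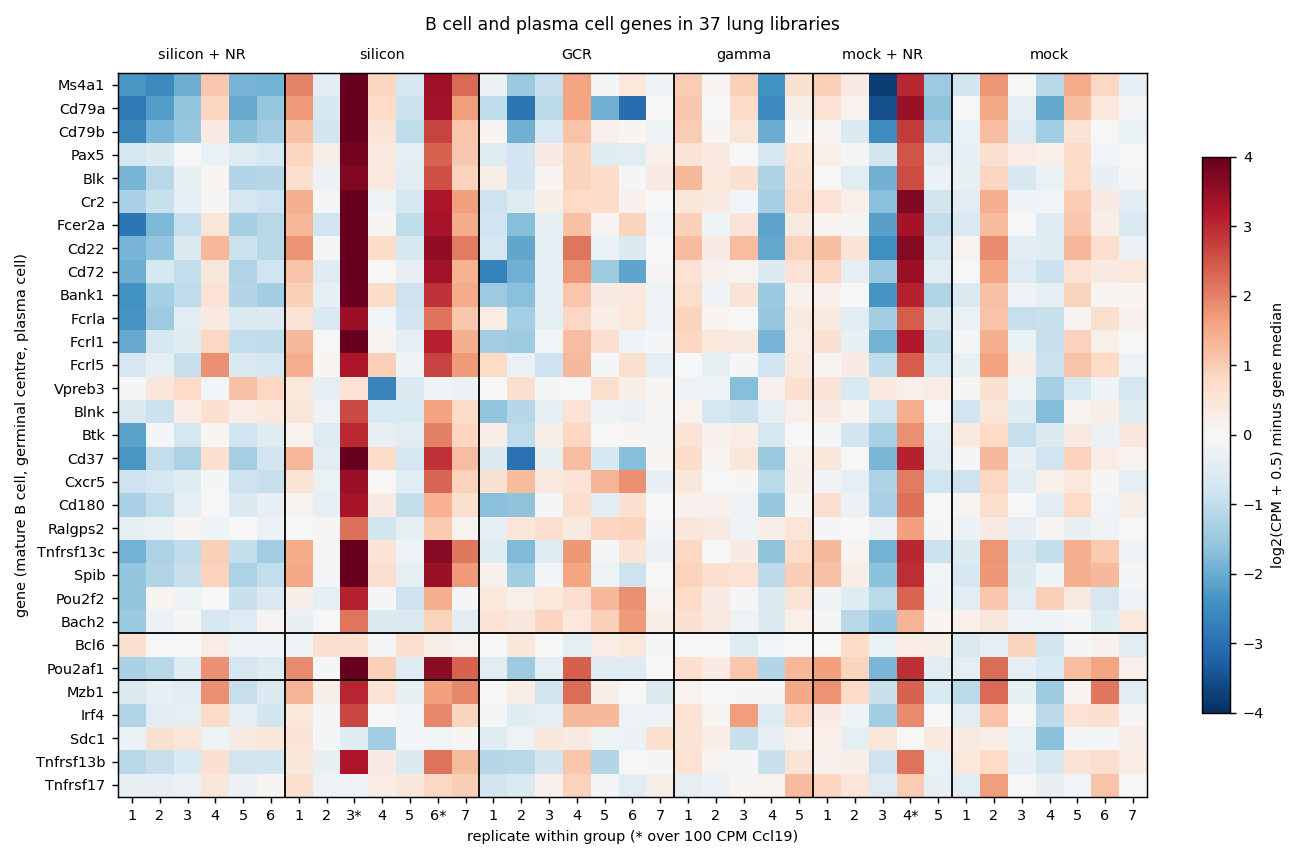
Heat map of the 31 genes (down the page, in their 3 classes) in the 37 libraries (across, by group), as log2(CPM + 0.5) minus the gene's median over the libraries. Asterisks mark the 3 libraries over 100 CPM of Ccl19, which are red over most of the mature B cell genes, while Vpreb3, Bcl6, Sdc1 and Tnfrsf17 show little of that pattern.

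Genes of mature B cells had ratios from 1.08 to 16.4, with a median of 10.9. Cd72, an inhibitory receptor of B cells, had the highest ratio. It shares 41.6% of its exon bases with Tesk1 on the other strand. The library kit does not mark strand, so reads from there cannot be assigned to either gene by strand. Cd72 was as low as 0.263 CPM in GCR replicate 1, while Tesk1 had a median of 30.6 CPM over the libraries. The next ratios were 15.9 for the low-affinity IgE receptor Fcer2a (CD23), 14.9 for the receptor chain Cd79a and 14.4 for the complement receptor Cr2. The receptor for the survival factor BAFF, Tnfrsf13c, had a ratio of 14.4, the inhibitory lectin Cd22 had 14.3 and the B lineage transcription factor Pax5 had 14.3. The ratio was 13.2 for the Fc receptor-like gene Fcrl1, 12.0 for the transcription factor Spib and 11.4 for both Ms4a1 (CD20) and Cd79b.

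The other genes of this class had lower ratios. The tetraspanin Cd37 had 11.2, the adaptor Bank1 10.6, the Src family kinase Blk 8.46, the Fc receptor-like genes Fcrl5 8.32 and Fcrla 7.42, and the toll-like receptor relative Cd180 7.62. The follicle-homing receptor Cxcr5 had 6.22, the kinase Btk, which myeloid cells also use, 5.76, and Pou2f2 5.20. The adaptor Blnk had 4.36, the Ral exchange factor Ralgps2 3.10 and the transcription factor Bach2 2.81. Vpreb3, a protein of developing B cells that binds newly made immunoglobulin, had 1.08. In Vpreb3 the highest of the 34 other libraries, at 189 CPM, was above the highest lymphoid-rich one at 122 CPM.

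The germinal centre and plasma cell genes were less uniform. Pou2af1 had a ratio of 10.8, and Bcl6, a repressor that many cell types also make, 1.23. Among plasma cell genes Tnfrsf13b (TACI), a receptor for BAFF and APRIL that mature B cells also carry, had 7.46. Irf4, a transcription factor of activated B cells and plasma cells, had 4.17, and Mzb1, a chaperone of antibody assembly, had 3.62. Of the exon bases of Mzb1 57.2% are also annotated to SPATA24. The maturation antigen Tnfrsf17 (BCMA) had 1.65, and the proteoglycan Sdc1 (CD138), which epithelial cells also carry, had 0.833.

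**Figure D2:**
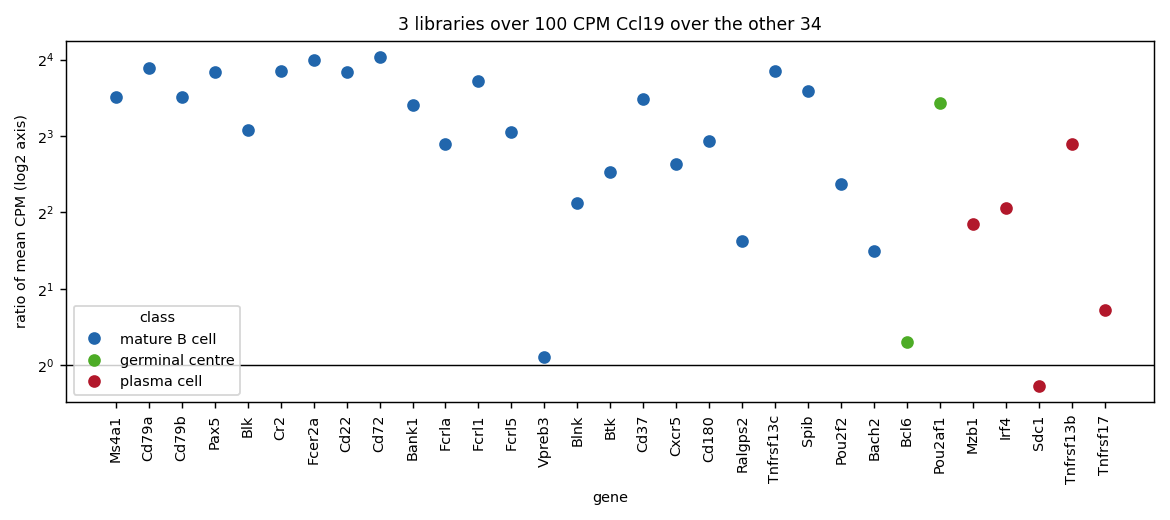
Ratio of the mean CPM in the 3 libraries over 100 CPM of Ccl19 to the mean in the other 34 (log2 axis), for each gene, coloured by class. Of the 24 mature B cell genes 20 lie above 5, up to 16.4, and Vpreb3, Bcl6, Sdc1 and Tnfrsf17 lie under 2.

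The 9 germinal centre genes outside the 31 summed to 81.1 to 136 CPM in the lymphoid-rich libraries and to 39.0 to 118 CPM in the others, so the list overlapped between them. Within it Rgs13, a regulator of G protein signalling, averaged 13.4 times more in the lymphoid-rich libraries and Nuggc 9.12 times more, both at low levels. Nuggc was higher in 2 of the 34 other libraries than in the lowest lymphoid-rich one. Rgs13 had 2.47 to 5.49 CPM in the lymphoid-rich libraries, against at most 1.58 CPM in the 34 other libraries. Jchain, which joins IgA and IgM chains in plasma cells, averaged 2.12 times more. T cell genes came with the B cell genes. The 12 T cell markers summed to 692 to 1368 CPM in the lymphoid-rich libraries and to 13.7 to 125 CPM in the others, with Cd8a and Cd8b1 at 0 in 1 library each. The 7 lymphoid stroma markers, Ccl19 among them, summed to 896 to 1177 CPM and to 6.14 to 125 CPM, with Ccl21a at 0 in all 37 libraries.

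Levels of different genes are compared per kilobase of exon. Over the 34 other libraries the highest medians were those of Vpreb3 (95.4 CPM per kilobase) and Sdc1 (56.8), ahead of Cd79b (14.9), Cd79a (12.5) and Mzb1 (9). The lowest were those of Pax5 (0.0508), Fcrl5 (0.134), Cd180 (0.333), Pou2f2 (0.38), Tnfrsf17 (0.39) and Tnfrsf13b (0.522). The pair of highest median, Vpreb3 and Sdc1, had the lowest ratios between the lymphoid-rich libraries and the rest.

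Levels of Ms4a1 by group were as follows. In silicon + NR the lowest, median and highest library had 1.74, 2.92 and 26.8 CPM, and in silicon they had 7.76, 51.1 and 326 CPM. Of the silicon + NR libraries 5 lay at or under 3.07 CPM, below all 7 silicon libraries, and replicate 4 lay within the range of silicon. In GCR the lowest, median and highest library had 4.13, 10.8 and 38.6 CPM. The 5 gamma libraries had 26.1, 13.4, 25, 1.97 and 19.6 CPM. The GCR and gamma libraries overlapped those of mock, where the lowest, median and highest were 5.49, 12.5 and 43.4 CPM. The 5 mock + NR libraries had 24.6, 15.9, 0.451, 104 and 4.29 CPM, which spans the range of all but 2 other libraries of the series.

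Cd79a and Cr2 were also low in most silicon + NR libraries. Cd79a had 2.54, 5.68 and 37.9 CPM (lowest, median, highest) in silicon + NR and 11.2, 67.0 and 552 CPM in silicon. It had 2.11, 9.62 and 62.9 CPM in GCR, against 4.66, 20.9 and 61.1 CPM in mock. The 3 GCR libraries of high Rn45s had 2.35, 5.18 and 2.11 CPM of Cd79a, the lowest of that group. Cd79a in the 5 gamma libraries was 45.1, 21.1, 35.3, 3.19 and 24.7 CPM, and in the 5 mock + NR libraries 31.3, 22.9, 1.39, 235 and 6.56 CPM. Cr2 had 2, 3.14 and 5.79 CPM in silicon + NR and 3.23, 16.0 and 142 CPM in silicon, so that the groups overlapped in silicon replicates 2, 4 and 5. It had 2.97, 6.43 and 10.2 CPM in GCR and 4.03, 5.21 and 16.4 CPM in mock. In gamma Cr2 lay between 1.94 and 9.85 CPM, and in mock + NR between 1.43 and 80.1 CPM.

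The pair of germinal centre genes differed. Pou2af1 had 1.86, 3.39 and 20.5 CPM in silicon + NR, 3.6, 21.1 and 180 CPM in silicon, 1.66, 3.87 and 30.5 CPM in GCR and 3.35, 6.27 and 27.3 CPM in mock. It lay between 2.13 and 14.2 CPM in gamma and between 1.17 and 44.2 CPM in mock + NR. Its highest library of GCR was replicate 4, which was also that of highest Ms4a1, Cd79a and Mzb1 in that group. Bcl6 varied far less, with 27.1, 31.6 and 48.3 CPM in silicon + NR, 28.1, 37 and 50.2 CPM in silicon, 24.7, 31.1 and 43.8 CPM in GCR and 19, 24.7 and 59.6 CPM in mock. In gamma and mock + NR it lay between 22.2 and 32 CPM and between 26.2 and 52.6 CPM, and all 6 groups overlapped.

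Of the plasma cell genes, Mzb1 and Tnfrsf17 also had some of their highest values in libraries that were not lymphoid-rich. In Irf4 and Tnfrsf13b each lymphoid-rich library was above every other library. Mzb1 had 5.59, 7.65 and 40.6 CPM in silicon + NR, 8.88, 29.1 and 94.8 CPM in silicon, 6.46, 11.1 and 53.8 CPM in GCR and 3.78, 8.93 and 55.8 CPM in mock. Its highest mock libraries, replicates 2 and 6, had 55.8 and 49.4 CPM, more than the 35.6 CPM of the lymphoid-rich silicon replicate 6. In gamma, replicate 5 had 32.4 CPM of Mzb1 and the other 4 had 10.6 to 12.2 CPM. Tnfrsf17 stayed at or under 2.12 CPM throughout, with its highest values in mock replicate 2 (2.12 CPM) and gamma replicate 5 (1.5 CPM), and was 0 in GCR replicate 1, where 3 counts would be 0.113 CPM. Silicon replicate 3, the library of highest Cd79a, had 0.246 CPM of Tnfrsf17. Tnfrsf17 had medians of 0.207 CPM in silicon + NR, 0.631 in silicon, 0.301 in GCR, 0.39 in gamma, 0.649 in mock + NR and 0.312 in mock.

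Irf4 and Sdc1 differed again. Irf4 had 1.25, 2.54 and 6.42 CPM in silicon + NR, 3.27, 4.92 and 25.1 CPM in silicon, 2.41, 3.20 and 9.53 CPM in GCR and 1.48, 3.72 and 8.44 CPM in mock. It reached 12.4 CPM in gamma replicate 3 and 14.4 CPM in mock + NR replicate 4. Sdc1 had 167, 262 and 303 CPM in silicon + NR, 76.1, 190 and 291 CPM in silicon, 142, 175 and 311 CPM in GCR and 63.5, 190 and 256 CPM in mock. It lay between 107 and 284 CPM in gamma and between 150 and 276 CPM in mock + NR. Its lowest libraries were mock replicate 4 and silicon replicate 4, both with over 1000 CPM of Acta1.

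**Figure D3:**
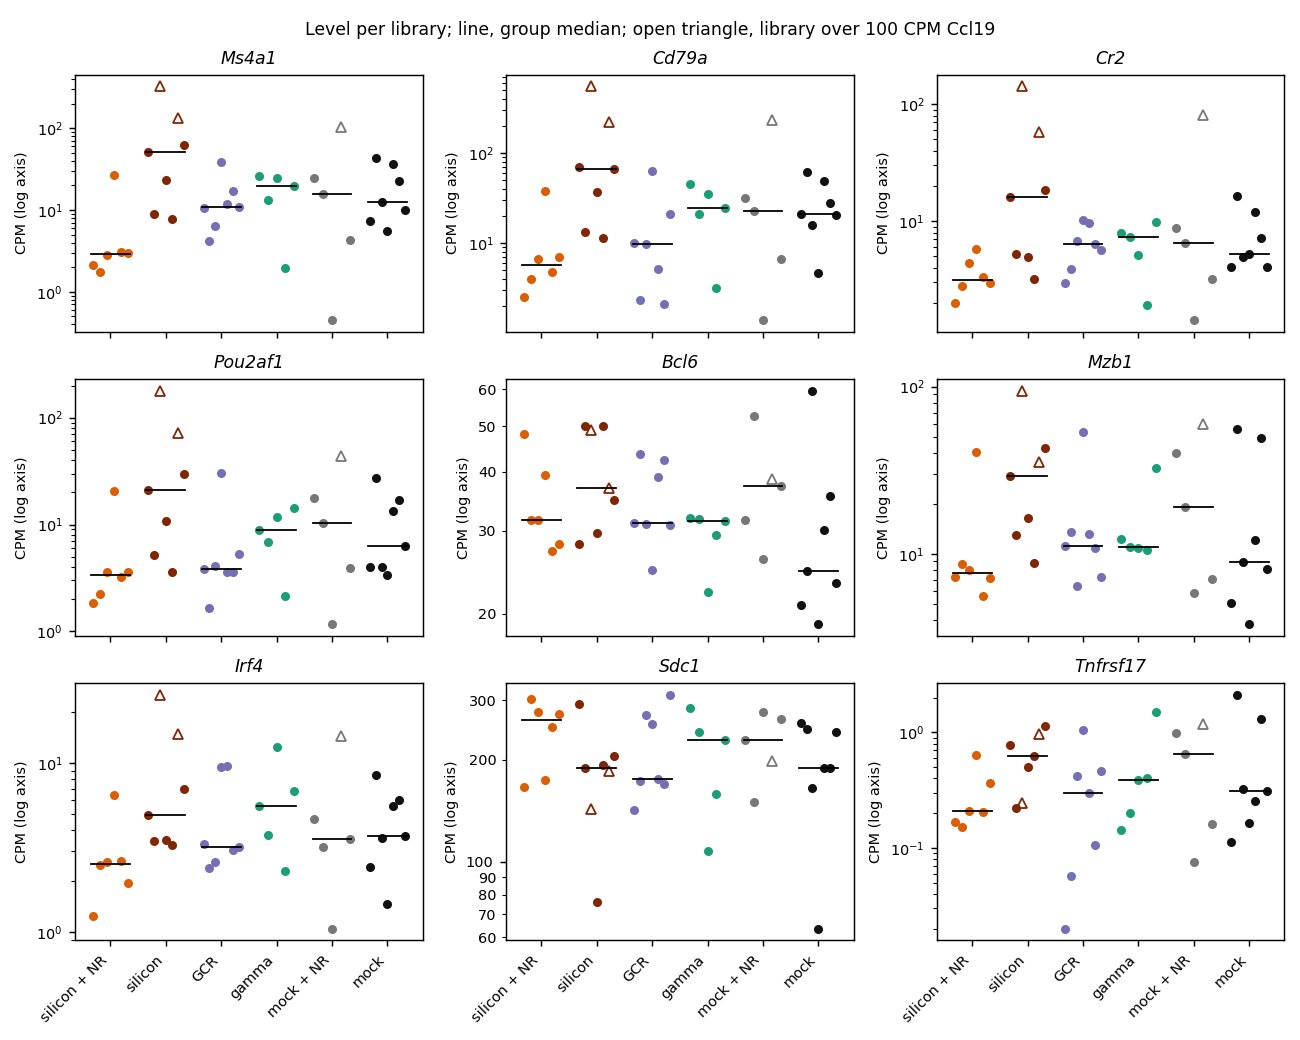
CPM (log axis) of 9 genes in each library, by group, with the group median as a line and open triangles for libraries over 100 CPM of Ccl19. Ms4a1, Cd79a, Cr2 and Pou2af1 are highest in the triangles and low in 5 of 6 silicon + NR libraries, while Bcl6 and Sdc1 overlap in all groups; the 0 of Tnfrsf17 in GCR replicate 1 is drawn at 0.02 CPM.

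Across the 34 other libraries 23 of 30 genes followed Cd79a, on log2(CPM + 0.5) with permutation p-values adjusted over 92 relations of the 31 genes with Cd79a, Jchain and Scgb1a1. Cd37 was closest (Pearson's r = 0.955, adjusted p = 3.29e-05; Spearman's rho = 0.976, adjusted p = 3.68e-05; n = 34). Next were Cd22 (r = 0.942), Pou2af1 (r = 0.92) and Spib (r = 0.914). These relations share a library's tissue content and depth. The share of all genes that would follow Cd79a, Jchain or Scgb1a1 in these libraries was not computed. Without the 2 libraries farthest from the median of Cd79a, Cd37 kept r = 0.952, and it was 0.953 in 12 muscle-rich and 0.955 in 22 other libraries. Calls go by Pearson's r. The 7 genes without one were Vpreb3 (r = -0.32), Bcl6 (r = -0.18), Ralgps2 (r = -0.13), Bach2 (r = 0.05), Sdc1 (r = 0.06), Pou2f2 (r = 0.18) and Cxcr5 (r = 0.24). Cxcr5 did pass by Spearman (rho = 0.391, adjusted p = 0.0427 by permutation). The 3 comparison genes were chosen after the values had been seen.

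Of the 5 plasma cell genes, Mzb1 and Tnfrsf17 had a higher r with Jchain than with Cd79a, a difference that was not tested. The other 3 had the higher r with Cd79a. Irf4 had 0.728 with Cd79a and 0.600 with Jchain, Tnfrsf13b 0.858 and 0.712, and Sdc1 0.06 and -0.04. Blnk, a gene of mature B cells, also had the higher r with Jchain (0.588, against 0.512 with Cd79a). Tnfrsf17 had r = 0.87 with Jchain (rho = 0.851, adjusted p = 3.29e-05 and 3.68e-05, n = 34) and r = 0.651 with Cd79a. Mzb1 had r = 0.792 with Jchain (rho = 0.70, adjusted p = 3.29e-05 and 6.57e-05, n = 34) and r = 0.658 with Cd79a. Without the 2 libraries farthest from the median of Jchain, r was 0.869 for Tnfrsf17 and 0.836 for Mzb1. Within the 12 muscle-rich libraries r with Jchain was 0.886 for Tnfrsf17 and 0.924 for Mzb1, and within the 22 others 0.893 and 0.806. The libraries of highest Jchain were mock replicate 2 (823 CPM), gamma replicate 5 (637 CPM) and GCR replicate 4 (608 CPM), none of which was lymphoid-rich. The lymphoid-rich mock + NR replicate 4 came next with 599 CPM, while the lymphoid-rich silicon replicates 3 and 6 had 347 and 283 CPM.

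Vpreb3 and Sdc1 followed Scgb1a1, the secretory protein of airway club cells. Vpreb3 had r = 0.792 (rho = 0.715, adjusted p = 5.58e-05 and 6.57e-05, n = 34), and 0.625 without the 2 libraries farthest from the median of Scgb1a1. Sdc1 had r = 0.679 (rho = 0.603, adjusted p = 9.95e-05 and 5.06e-04, n = 34), and 0.509 without those 2 libraries. Vpreb3 was lowest in silicon replicate 4 with 12.8 CPM and gamma replicate 3 with 24.9 CPM, which also had the least Scgb1a1 (25010 and 30810 CPM). Within the 12 muscle-rich libraries r was 0.831 for Vpreb3 and 0.646 for Sdc1, and within the 22 others 0.65 and 0.529. The 31 genes gave 1 other call with Scgb1a1, a negative one for Bank1 (r = -0.41, adjusted p = 0.0299 by permutation, n = 34), which did not pass by Spearman (rho = -0.325, adjusted p = 0.107).

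**Figure D4:**
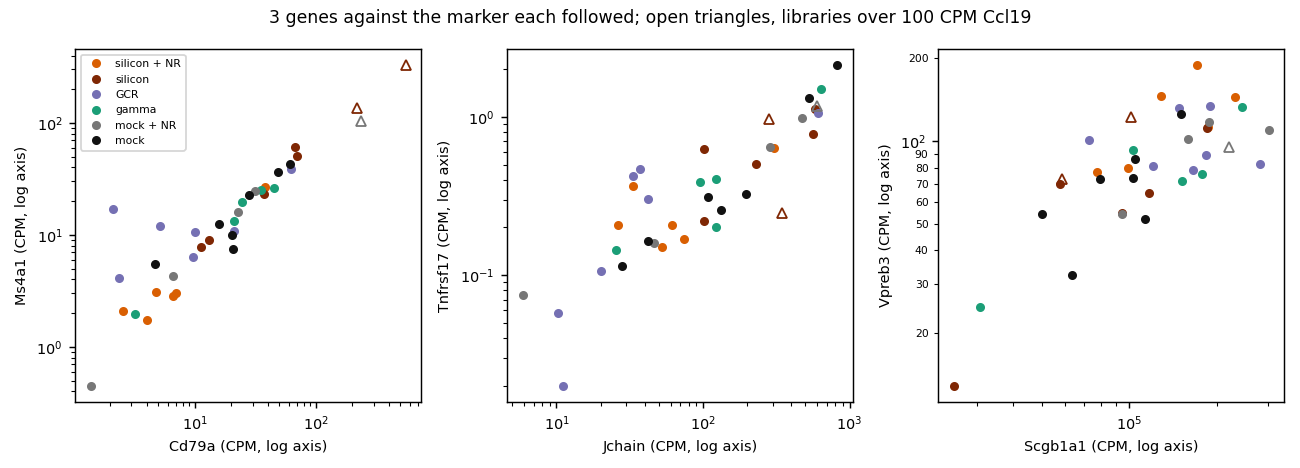
Ms4a1 against Cd79a, Tnfrsf17 against Jchain and Vpreb3 against Scgb1a1, in CPM on log axes, 1 point per library coloured by group, with open triangles for the 3 libraries over 100 CPM of Ccl19. Ms4a1 is highest in the triangles, Tnfrsf17 is highest in mock replicate 2, and Vpreb3 is lowest where Scgb1a1 is lowest; the 0 of Tnfrsf17 is drawn at 0.02 CPM.

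The first comparison asks what silicon ions with NR did relative to silicon ions alone. The fitted levels of 29 of the 31 genes were lower in silicon + NR, with a median log2 fold change of -2.46, against -0.05 over all 16977 genes tested. None of the 31 genes passed the test (edgeR's quasi-likelihood test, Benjamini-Hochberg adjusted p under 0.05 over all genes), and 0.0% of all genes did. At an unadjusted p under 0.05, 25 of the 31 were lower, against a share of 7.4% of all genes. Pax5 had the smallest p, with 0.210 ± 0.136 CPM in silicon + NR and 3.10 ± 4.55 CPM in silicon (mean ± SD, n = 6 and 7) and a log2 fold change of -3.81 (SE 0.83, edgeR adjusted p = 0.0663). The 6 silicon + NR libraries held only 3, 4, 13, 9, 5 and 3 counts of Pax5. Blk was at -2.80 (SE 0.63) and Spib at -3.40 (SE 0.77), both with an edgeR adjusted p of 0.0663. By class the medians were -2.99 for mature B cell genes, -1.55 for the germinal centre pair and -1.32 for plasma cell genes. Vpreb3 and Sdc1 had positive fold changes, 0.83 (SE 0.36) and 0.41 (SE 0.24).

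The calls in this comparison depended on the test and on single libraries. DESeq2 called 20 of the 31 genes lower, from Pax5 at -3.80 to Btk at -1.89, against 1.9% of all genes lower. Without silicon replicate 1 edgeR called 17 of the 31 lower (1.54% of all genes), without replicate 2 18 (1.46%), without replicate 4 13 (0.743%) and without replicate 5 17 (1.28%). Without the muscle-rich libraries, which left silicon replicates 1 and 3, it called 18 (0.933%). That fit also left out silicon + NR replicates 1 and 4, of which replicate 4 had the highest Ms4a1 and Cd79a of its group. In all of those fits the lymphoid-rich silicon replicate 3 was kept. Without the 3 lymphoid-rich libraries none of the 31 genes was called, the median log2 fold change was -1.24, and 16 genes were lower at an unadjusted p under 0.05, all of them of mature B cells, against 2.85% of all genes. There Pax5 was at -2.16 (SE 0.60), Blk at -1.37 (SE 0.42) and Spib at -1.66 (SE 0.60), each with an edgeR adjusted p of 0.804, and these adjusted p-values ran from 7.66e-04 to 0.804 over the alternatives tried.

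T cell and lymphoid stroma markers moved with the B cell genes here. In the fit with all 37 libraries, all 12 T cell markers were lower in silicon + NR at an unadjusted p under 0.05, against 7.4% of all genes. Their median log2 fold change was -3.25, and none was called by edgeR. The T cell markers summed to 17.5 to 53.8 CPM in silicon + NR and to 34.5 to 1368 CPM in silicon. The 6 tested lymphoid stroma markers had a median of -3.90 and summed to 9.76 to 65.5 CPM in silicon + NR and to 32.7 to 1177 CPM in silicon. Scgb1a1 lay between 77320 and 230500 CPM in silicon + NR and between 25010 and 185500 CPM in silicon. Their part in the lower B cell genes was not tested. Among B cell ligands the follicle chemokine Cxcl13 had a log2 fold change of -3.22 (SE 0.75), the T cell helper ligand Cd40lg -2.55 (SE 0.69) and the helper cytokine Il21 -4.55 (SE 1.28), with edgeR adjusted p-values of 0.0663, 0.0793 and 0.0891.

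Most other B cell genes were also lower in fitted level. Of 13 tested genes of mature B cells outside the 31, 11 were lower at an unadjusted p under 0.05, against 7.4% of all genes. Their median log2 fold change was -2.08. All values of these lists are from the fit with all 37 libraries, the 3 lymphoid-rich ones included. The IgM receptor Fcmr was at -4.04 (SE 0.98), the inhibitory lectin Siglecg at -2.83 (SE 0.69) and the phospholipase Plcg2 at -1.54 (SE 0.39), each with an edgeR adjusted p of 0.0663. Of 7 germinal centre genes 4 were lower at that level, among them Nuggc at -2.70 (edgeR adjusted p = 0.304). Of 9 plasma cell genes 1 was lower, Slamf7 at -1.68 (SE 0.53, edgeR adjusted p = 0.14), and the list's median was -0.14.

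The second comparison sets silicon against mock. The fitted levels of 29 of the 31 genes were higher in silicon, with a median log2 fold change of 1.82, against 0.07 over all genes, and 0.0% of all genes passed the edgeR test. Of the 31 genes none was called and 21 were higher at an unadjusted p under 0.05, against 5.41% of all genes, and DESeq2 called 9 higher, against 0.524%. Blk averaged 19.6 CPM in silicon and 5.56 CPM in mock (n = 7 each), with a log2 fold change of 1.87 (SE 0.57, edgeR adjusted p = 0.124). Cr2 was at 2.21 (SE 0.68, edgeR adjusted p = 0.125) and Pax5 at 2.30 (SE 0.72, edgeR adjusted p = 0.129). Mature B cell genes had a median of 1.93 and plasma cell genes of 0.75, and Tnfrsf17 and Sdc1 were at -0.27 and -0.01.

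Without the lymphoid-rich libraries, among them 2 of the 7 silicon libraries, the median over the 31 genes was 0.33. None of the 31 genes was then called by edgeR or had an unadjusted p under 0.05. Cr2 was at 0.44 (SE 0.45), Blk at 0.42 (SE 0.40) and Pax5 at 0.63 (SE 0.56), with edgeR adjusted p-values of 0.819, 0.806 and 0.782, and over the alternatives these adjusted p-values ran from 0.0316 to 0.819. Leaving out silicon replicate 3 alone brought Cr2 to 1.21 and Blk to 1.09. The T cell list, with a median of 2.13, and the lymphoid stroma list, with 2.89, also had positive fitted values with all libraries, and their part in the B cell values was not tested. With all libraries, 8 of the 13 tested mature B cell genes outside the 31 were higher at an unadjusted p under 0.05 (median 1.25). Of the 9 plasma cell genes none was (median 0.14), and of all genes 5.41% were. In the 5 silicon libraries that were not lymphoid-rich Ms4a1 lay between 7.76 and 61.5 CPM, against 5.49 to 43.4 CPM in mock.

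**Figure D5:**
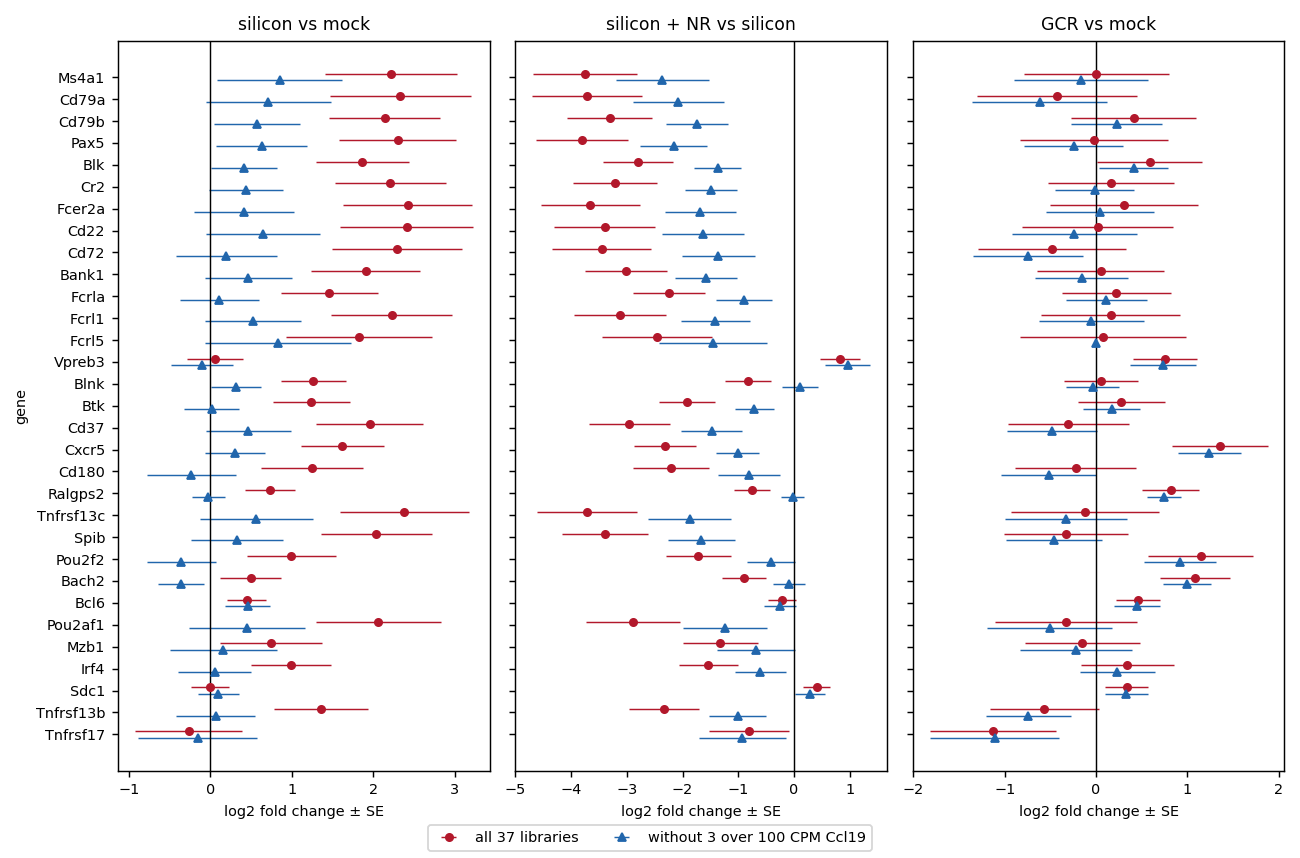
Log2 fold change ± SE of the 31 genes from edgeR in silicon against mock, silicon + NR against silicon and GCR against mock, with all 37 libraries (circles) and without the 3 over 100 CPM of Ccl19 (triangles). In the first comparison the triangles lie near 0, in the second most stay below 0, and in the third Cxcr5, Bach2, Pou2f2 and Ralgps2 lie above 0 in both fits; no SE is drawn where the fold change is too near 0 to give one (Fcrl5, GCR).

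Silicon + NR was also set against mock + NR. Here 29 of the 31 genes had lower fitted levels, with a median log2 fold change of -1.47, and 16 were lower at an unadjusted p under 0.05, against 1.91% of all genes. None was called by edgeR (0.0% of all genes) or by DESeq2. Cr2 was at -2.29 (SE 0.77), Pax5 at -2.33 (SE 0.83) and Cd72 at -2.33 (SE 0.90), each with an edgeR adjusted p of 1. Without mock + NR replicate 4, which is lymphoid-rich, Cr2 was at -0.48 and Pax5 at -0.62. Without all 3 lymphoid-rich libraries the median was -0.38 and no gene had an unadjusted p under 0.05.

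Mock + NR against mock gave positive fitted values for all 31 genes, with a median of 0.56. Without the lymphoid-rich libraries, of which mock + NR replicate 4 is one, 25 of the 31 were negative and the median was -0.47. None was called by edgeR or DESeq2 or had an unadjusted p under 0.05, and 0.0% of all genes were called by edgeR. Cr2 was at 1.28 (SE 0.72, edgeR adjusted p = 0.383), Blnk at 0.75 (SE 0.43, edgeR adjusted p = 0.395) and Ralgps2 at 0.54 (SE 0.34, edgeR adjusted p = 0.459). Without mock + NR replicate 4 Cr2 was at -0.53.

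The difference between the silicon effect with NR and that without it was tested as an interaction. Its median over the 31 genes was -2.84, with 25 lower at an unadjusted p under 0.05, against 4.92% of all genes. None of the 31 was called by edgeR (0.0% of all genes), with Cr2 at -4.50 (SE 1.02, edgeR adjusted p = 0.0821), Pax5 at -4.63 (SE 1.09, edgeR adjusted p = 0.0828) and Blk at -3.51 (SE 0.85, edgeR adjusted p = 0.0828). DESeq2 called 16 lower (1.3% of all genes). Without the muscle-rich libraries, silicon + NR replicates 1 and 4 among them, edgeR called 21 lower (2.68%). Without silicon replicate 2 it called 10 (0.826%), without silicon replicate 4 it called 1 (0.118%) and without silicon replicate 5 it called 9 (0.713%). Without mock + NR replicate 2 it called 1 (0.17%) and without mock + NR replicate 3 it called 14 (0.836%). The lymphoid-rich libraries belong to silicon and mock + NR, and high levels in either group make this difference more negative. Without these libraries the median was -0.71 and no gene had an unadjusted p under 0.05. Over the alternatives the adjusted p-values of Cr2, Pax5 and Blk ran from 0.00283 to 0.994.

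GCR against mock differed from the silicon comparisons, with a median log2 fold change of 0.08 over the 31 genes and 20 of them positive. Of all genes 16.6% were called by edgeR in either direction and 8.03% were called higher. Of the 31 genes 1 was called, no more than these shares would give. Bach2, a repressor that keeps B cells from becoming plasma cells and is also used by T cells, rose to 19.3, 17.9, 24.1, 17.6, 25.9, 43.1 and 15.7 CPM in GCR, against 15.1, 18.0, 11.2, 11.5, 12.2, 9.23 and 17.7 CPM in mock. The groups overlapped in GCR replicates 2, 4 and 7, and replicate 6 was highest. Its log2 fold change was 1.09 (SE 0.38, edgeR adjusted p = 0.0488). Cxcr5 was at 1.36 (SE 0.52, edgeR adjusted p = 0.0665) and Ralgps2 at 0.82 (SE 0.32, edgeR adjusted p = 0.0679).

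In Cxcr5 the 3 GCR libraries of high Rn45s were the highest of the group, and in Bach2 and Pou2f2 replicates 5 and 6 were while replicate 2 lay among the others. Cxcr5 had 18.5, 19.7 and 27.6 CPM in GCR replicates 2, 5 and 6 and 5.89 to 11.6 CPM in the other 4, while mock lay between 3.95 and 13.6 CPM. Pou2f2 had 3.84, 8.92 and 13.1 CPM in those replicates and 3.6 to 5.50 CPM in the other 4. In the same replicates Cd79a was at its lowest in the group. Without the 4 libraries of high Rn45s Bach2 was at 0.60 (SE 0.44, edgeR adjusted p = 0.489), Cxcr5 at 0.50 (SE 0.58, edgeR adjusted p = 0.681) and Ralgps2 at 0.40 (SE 0.36, edgeR adjusted p = 0.584). The groups also differed in muscle RNA: the 5 skeletal muscle markers summed to 30.3 to 82.5 CPM in GCR and to 17.8 to 33760 CPM in mock. Without the muscle-rich libraries Bach2 was at 0.76 (edgeR adjusted p = 0.41). The part of Rn45s and of muscle in these values was not tested. Total counts of GCR replicates 2, 5 and 6 were 17433007, 16585139 and 9485197, and those of the other GCR libraries at least 26586165.

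The call of Bach2 was lost in 12 of 14 fits that left out 1 GCR or mock library and held without GCR replicate 4 or 7, with edgeR adjusted p-values from 0.0302 to 0.13. Without mock replicate 3 Bcl6 was called in its place. Without the lymphoid-rich libraries, none of which is GCR or mock, Bach2, Cxcr5 and Ralgps2 were called by edgeR, with 7.15% of all genes called higher. DESeq2 with all libraries called the same 3 genes, with 11% of all genes called higher. In both fits 3 of the 31 genes is near what the share of all genes would give. Over the alternatives adjusted p-values ran from 0.0191 to 0.489 for Bach2, from 0.0226 to 0.681 for Cxcr5 and from 0.0163 to 0.584 for Ralgps2. Receptor and follicular genes were not called, with Cr2 at 0.16, Ms4a1 at 0.00 and Cd79a at -0.42 (SE 0.88). Outside the 31, 1 of 13 genes of mature B cells rose, Zfp318, a factor needed for IgD, at 0.75 (edgeR adjusted p = 0.0406). Of 9 plasma cell genes 1 fell. Both counts are near what the shares of all genes called would give. The plasma cell gene was Fkbp11, a prolyl isomerase of the endoplasmic reticulum, which fell by 1.05 on the log2 scale in GCR (SE 0.31, edgeR adjusted p = 0.024), and Jchain was at -1.72 (SE 0.97, edgeR adjusted p = 0.207).

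Gamma against mock had a median of -0.06 over the 31 genes, with 12 positive. None was called by edgeR (0.0295% of all genes) or DESeq2 or had an unadjusted p under 0.05. Ralgps2 was at 0.40 (SE 0.34, edgeR adjusted p = 0.748), Fcrl5 at -1.04 (SE 1.01, edgeR adjusted p = 0.784) and Irf4 at 0.50 (SE 0.53, edgeR adjusted p = 0.807). For Cd79a the 5 gamma libraries lay within the range of the 7 mock libraries but for replicate 4.

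Females were set against males over all groups by their labels, so the females include gamma replicate 5, and without it none of the 31 genes was called either. Of the 31 genes 29 had negative fitted values, with a median log2 fold change of -0.44, and without the lymphoid-rich libraries, 2 of which are male, the median was -0.08. None was called by edgeR (0.0589% of all genes) or DESeq2 or had an unadjusted p under 0.05. Pou2f2 was at -0.63 (SE 0.37), Cxcr5 at -0.56 (SE 0.34) and Tnfrsf17 at 0.76 (SE 0.46), each with an edgeR adjusted p of 1.00.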

How the data were processed

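Lung RNA from 37 mice was sequenced, and the values used are whole-number counts per gene, deposited by the authors in 1 table. Per the labels' protocols RNA was extracted with Trizol and libraries were made with SMART-seq v4 and Nextera XT, which do not mark strand. The submitters' processing notes name FastQC 0.11.4, MultiQC 1.12, Trimmomatic 0.36, STAR 2.5.2, HTSeq 0.13.5 and the mm10 genome. CPM was computed as a gene's count over the library's total count. The 31 genes and the other lists were chosen with earlier results of these data known. Counts were fitted with edgeR 4.0.16 in R 4.3.3 (filterByExpr, TMM scaling, quasi-likelihood test, terms for group and sex, all 37 libraries), with Benjamini-Hochberg adjustment over the 16977 genes that passed the filter. Genes were called at an adjusted p under 0.05, and all tests were two-sided. The SE is the size of the log2 fold change over the root of the F statistic. DESeq2 1.42.0 was an alternative, as were fits with no count filter, with no sex term, and without the lymphoid-rich, muscle-rich or Rn45s-rich libraries or each single library in turn. The steps were tested on simulated data. All 31 genes are named, values by library are given for 9 of them, and each comparison names its called genes or the 3 of smallest p. Exon lengths and overlaps come from GENCODE on mm10, and promoters from RefSeq on GRCm38.p6. Replicates are numbered by accession, which pairs no samples. A floor of 3 counts covers counting error only. Between libraries of 1 group, the smallest chi-square per degree of freedom was 20.06, so none was counted as a repeat of another.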

Additional observations from a re-analysis of the deposited data

Results flagged for a closer look

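In 22 of 54 gene and group combinations, over 9 genes and 6 groups, 1 library stood apart from its group by Dixon's criterion. Chance meets this criterion in about 1 of 20 groups when values are normally distributed. CPM values here are skewed towards high values and several of the 9 genes vary together, so the 22 cannot be set against that rate. Silicon + NR replicate 4 stood above its group with 26.8 CPM of Ms4a1, 37.9 of Cd79a, 20.5 of Pou2af1, 40.6 of Mzb1 and 6.42 of Irf4. Silicon replicate 3, which is lymphoid-rich, had 326 CPM of Ms4a1, 552 of Cd79a, 142 of Cr2, 180 of Pou2af1 and 94.8 of Mzb1. GCR replicate 4, the library of highest total count, had 38.6 CPM of Ms4a1, 62.9 of Cd79a, 30.5 of Pou2af1 and 53.8 of Mzb1. The lymphoid-rich mock + NR replicate 4 had 104 CPM of Ms4a1, 235 of Cd79a, 80.1 of Cr2 and 14.4 of Irf4. Gamma replicate 5, whose sex label goes against its Xist and Ddx3y counts, had 32.4 CPM of Mzb1 and 1.5 of Tnfrsf17. Bcl6 was low in gamma replicate 3 at 22.2 CPM and high in mock replicate 3 at 59.6 CPM.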

How the results depend on the processing

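DESeq2 in place of edgeR called 9 of the 31 genes in silicon against mock, 3 in GCR against mock, 20 in silicon + NR against silicon and 16 in the interaction, where edgeR called 0, 1, 0 and 0. Without the muscle-rich libraries edgeR called 1, 0, 18 and 21, with silicon left at replicates 1 and 3 and silicon + NR without replicates 1 and 4. In GCR against mock it called 0 with no count filter, 0 with no sex term, 0 without the Rn45s-rich libraries and 3 without the lymphoid-rich ones. Leaving out 1 library at a time gave 0 to 3 calls in GCR against mock, 0 to 18 in silicon + NR against silicon and 0 to 14 in the interaction. Cr2 in mock + NR against mock changed sign, to -0.52 without the lymphoid-rich libraries and -0.53 without mock + NR replicate 4; leaving out 1 library at a time gave -0.53 to 1.58. The causes were not tested. No paired analysis was possible because replicate numbers were given in accession order. Depth limits the lowest genes, such as Pax5 and Tnfrsf17.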
